A study of Mus musculus with 6 samples.

Results

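Potassium channel genes were examined in the renal cortex of diabetic mice with and without the receptor for the complement fragment C3a. The genes were taken by name: every gene probe on the array whose symbol began with Kcn, followed by the letters of a subfamily and a number, was listed, and a gene was kept where a probe was well above background on at least 3 of the 6 arrays. The array held 170 such probes for 92 genes, and 75 probes for 58 genes were kept, out of 22741 genes tested in all. Of these 58 genes, 47 had a probe well above background on all 6 arrays and 11 on 3 to 5 arrays. A further 7 genes were well above background only on 1 or 2 arrays, and 27 on none. The signal itself chose the members, so their being measured is not a result. No kept gene owed its place to 1 group alone.

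The arrays came from male C57BL/6 mice in 2 groups, WT and C3aR-/-, with 3 arrays in each. All mice of both groups were made diabetic: from 8 weeks of age they received a high-fat diet (60% of calories from fat), and after 4 weeks streptozotocin, a toxin of insulin-producing cells, at 60 mg/kg on 3 days. Kidneys were taken 26 weeks after streptozotocin. The labels give neither the construction of the C3aR-/- allele nor whether the 3 samples of a group were separate animals, so each p-value reflects only the scatter among the samples given, which may be technical. An exact two-sided permutation test of 3 against 3 arrays cannot go below 0.1, so tests are those of the limma fit over all genes. Non-diabetic mice were not analysed here, and every comparison below is C3aR-/- against WT among diabetic kidneys.

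Potassium channels let potassium ions leave the cell, which sets the membrane voltage. In the kidney tubule, inward rectifiers and tandem-pore channels return potassium across the basolateral membrane so that the sodium pump can keep working, and luminal channels secrete potassium into the urine. In leukocytes, calcium-activated and voltage-gated channels keep the membrane negative while calcium enters, and in vessel walls potassium channels relax smooth muscle. Auxiliary subunits of the Kcne, Kcnmb, Kcnab and Kcnip families set the gating and traffic of the pore-forming subunits.

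Levels are log2 of the processed signal minus the 75th percentile of the array, so that 0 is the signal of a probe at that percentile. Differences are C3aR-/- minus WT on that log2 scale, with the standard error of limma. Levels of different probes are not comparable, since each probe binds with its own strength. The gene that was removed by design, C3ar1, had a difference of -1.10 ± 0.30 (limma adjusted p = 0.931, unadjusted p under 0.05) with groups that did not overlap; all 3 WT arrays and 2 of the C3aR-/- arrays read its probe as well above background. Whether that probe lies within the deleted part was not tested. Each array had between 58.6% and 63% of its probes well above background, and from 64 to 79 of the family's probes. All markers of the proximal tubule, thick ascending limb, distal convoluted tubule, principal cell and podocyte lists were measured. Of other lists, 5 of 6 neuron, 3 of 5 adrenal cortex and 1 of 4 urothelium markers were measured too. Being measured is therefore no check of the labelled tissue. All 6 arrays shared 1 slide and 1 scan.

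No potassium channel gene passed an adjusted p of 0.05 (limma with Benjamini-Hochberg over all genes), and neither did any of the 22741 genes, a share of 0%. The lowest adjusted p was 0.931 among the channels and 0.858 among all genes. At an unadjusted p under 0.05, 2 of the 58 genes were called, Kcnn4 and Kcnip4, both lower in C3aR-/-, which is 3.45% of the members beside 4.89% of all genes (2.68% lower and 2.21% higher). The groups did not overlap for 4 of the 58 genes, 6.9% beside 9.85% of all genes (4.19% lower and 5.66% higher): Kcnn4 and Kcnip4 were lower, and Kcnd1 and Kcns1 were higher. No member differed by 2-fold or more, beside 0.959% of all genes. The differences ran from -0.96 to 0.54, and 41 of 58 lay within 0.25 of 0. The direction was the same with each array left out in turn for 32 of the 58. Of the 58, 22 were lower (37.9%, beside 43.4% of all genes) and 36 higher, with a median of 0.0915 beside 0.0259 over all genes. Shares near the background are no result about the family.

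**Figure D1:**
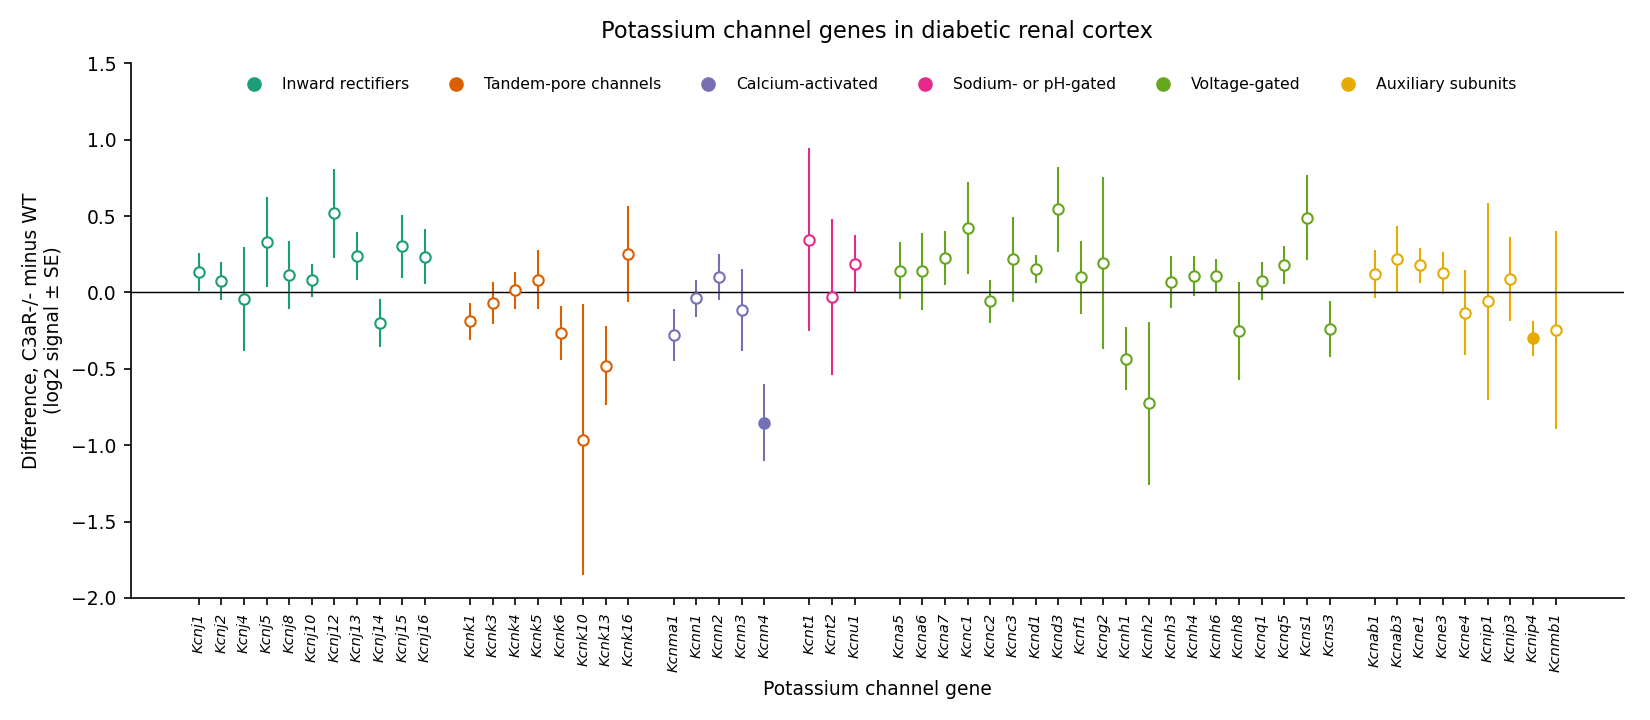
Difference C3aR-/- minus WT (log2 processed signal, relative to the array's 75th percentile) with its standard error for the potassium channel genes, grouped by channel class, without the few whose values are not reported here, 3 arrays per group. Filled points have an unadjusted limma p under 0.05; they are Kcnn4 at -0.85 and Kcnip4 at -0.30, and most other genes lie near 0.

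The member with the smallest p was Kcnn4, which encodes the intermediate-conductance calcium-activated potassium channel of T cells, macrophages and red cells. It had 3 kept probes, shown here because they differ in the size of the difference and in where they lie. The probe used lies at chr7:25170161-25170220 (mm9, plus strand), with a genomic footprint of 60 bases. The other probes span 599 and 459 bases of the genome, so their 60 bases are not contiguous there. The probe used holds AATAAA, the canonical polyadenylation signal, in its last 30 bases, a motif found there in 8.13% of all 56605 probes and in 14.7% of the 75 member probes (its reverse complement TTTATT was in 2.09% of all probes). The Kcnn4 windows below are 30 bases of each probe, 5′ to 3′, with AATAAA in capitals.
Kcnn4 probe used, last 30 bases: aatccaccctcatactttgtAATAAAtggt
Kcnn4 probe spanning 599 bases, first 30 bases: gccacatagctccacatgaactcacagaag
Kcnn4 probe spanning 459 bases, first 30 bases: aaacacgtgcacaacttcatgatggacatc

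By the probe used, the Kcnn4 levels were 0.16, -0.61 and 0.08 in WT replicates 1, 2 and 3 and -0.97, -1.29 and -0.67 in C3aR-/- replicates 1, 2 and 3. The lowest WT array, replicate 2, lay just above the highest C3aR-/- array, replicate 3. The difference was -0.85 ± 0.25 (limma adjusted p = 0.931, unadjusted p under 0.05), a C3aR-/- level 0.554 times that of WT. It was -0.86 among the 4 arrays of slide row 1 and -0.83 among the 2 arrays of row 2.

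The probe spanning 599 bases gave -1.13 ± 0.32 (unadjusted limma p under 0.05 in a fit of every probe on its own), also with groups that did not overlap. The probe spanning 459 bases gave -0.33 ± 0.50, and it passed the background flag on 2 arrays of WT and 1 of C3aR-/-. With each array left out in turn, the Kcnn4 difference lay between -1.10 and -0.70, with an unadjusted p under 0.05 in all 6 fits. Without both WT replicate 1 and C3aR-/- replicate 2, the ends of the first principal component, it was -0.56 and its unadjusted p was above 0.05.

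Markers of the leukocytes that carry this channel moved with it. The marker lists were named with earlier results of these data known. All 9 measured T cell markers were lower in C3aR-/-, with a median difference of -1.22. Of these, 8 had an unadjusted p under 0.05, beside 2.68% of all genes called lower, and none passed the adjusted threshold. Marker sums, here and below, add the unlogged signals relative to the 75th percentile, so the brightest markers weigh most. The T cell sums ran from 4.85 to 7.70 in WT and from 2.20 to 3.52 in C3aR-/-. All 12 macrophage markers were lower too, 7 of them at an unadjusted p under 0.05, with a median of -0.61 and sums of 76.9 to 116.4 in WT against 49.7 to 70.2 in C3aR-/-. All 4 measured B cell markers were also lower, 1 of them, Cd79b, at an unadjusted p under 0.05, with a median of -0.45. The T cell and macrophage lists did not lack signal: Cd6 and Cd2 (T cell) and Lyz2 and C1qa (macrophage) were measured on all 6 arrays. Their part in the Kcnn4 result was not tested. In bulk RNA, fewer cells of a type and less RNA per cell cannot be told apart.

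**Figure D2:**
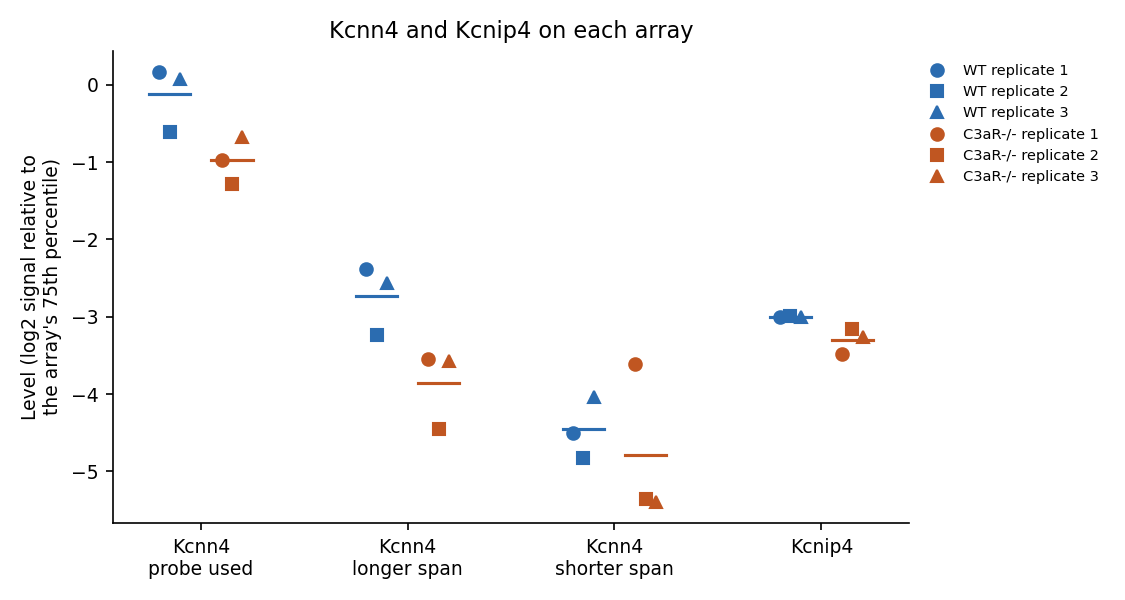
Level of Kcnn4 (the probe used and those with the longer, 599-base, and shorter, 459-base, span) and Kcnip4 (1 probe) on each of the 6 arrays (log2 processed signal relative to the array's 75th percentile), with group means. All 3 C3aR-/- arrays lie below all 3 WT arrays for the Kcnn4 probe used and for Kcnip4.

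Channels known from leukocytes were listed with earlier results of these data known. Of the 7 listed, Kcnn4 among them, 5 were kept, 3 lower and 2 higher, with a median of -0.27 and only Kcnn4 at an unadjusted p under 0.05. Kcnk13, a tandem-pore channel of microglia and macrophages, read -3.07, -3.89 and -3.11 in WT and -3.62, -4.13 and -3.76 in C3aR-/-, a difference of -0.48 ± 0.26 (limma adjusted p = 0.931). Its WT replicate 2 lay below the C3aR-/- arrays of replicates 1 and 3, so the groups overlapped. Without WT replicate 2 the difference was -0.75 with an unadjusted p under 0.05, and with normexp background correction on all arrays it was -0.18. Kcnk6, a tandem-pore channel of macrophages, differed by -0.27 ± 0.18. Kcnj2, the classical inward rectifier of muscle and macrophages, differed by 0.07 ± 0.13, and Kcnq5 by 0.18 ± 0.13. Kcna3, the voltage-gated channel of activated T cells, and Kcnab2, its auxiliary subunit, were well above background on no array.

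Kcnip4 encodes a calcium-binding auxiliary subunit of the Kcnd channels. It had 1 kept probe, at chr5:48780776-48780835 (mm9, minus strand), whose first 30 bases are given because this gene is the other one called.
Kcnip4 probe, first 30 bases: agaaatctgccatcgcgtgtttgtgtaaac

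Kcnip4 read -3.01, -2.99 and -3.01 in WT and -3.49, -3.16 and -3.26 in C3aR-/-. The WT arrays lay close together (SD 0.0123), all above the C3aR-/- arrays. The difference was -0.30 ± 0.11 (limma adjusted p = 0.931, unadjusted p under 0.05). The unadjusted p of Kcnip4 was above 0.05 with a variance trend, without the filter and with the replicate number as a block. With normexp background correction the difference was -0.12, also with an unadjusted p above 0.05. With single arrays left out it lay between -0.37 and -0.21, and its unadjusted p was under 0.05 in 1 of the 6 fits, the one without C3aR-/- replicate 2. The other Kcnip genes kept, Kcnip1 and Kcnip3, differed by -0.06 ± 0.64 and 0.08 ± 0.28. The Kcnd genes encode the pores that these subunits bind, and both kept ones had values above 0. Kcnd1 read 0.05, 0.05 and -0.07 in WT and 0.13, 0.22 and 0.13 in C3aR-/-, a difference of 0.15 ± 0.09 (limma adjusted p = 0.931) without overlap, though its other probe, far dimmer, gave 0.02. Kcnd3 had the highest difference of all members, 0.54 ± 0.28 (limma adjusted p = 0.931): its levels were -0.92, -1.16 and -0.60 in WT and 0.21, -0.81 and -0.45 in C3aR-/-. C3aR-/- replicate 1 was the highest of the 6 arrays, and without it the Kcnd3 difference was 0.27. It was 0.77 without C3aR-/- replicate 2 and 0.88 with array weights, each with an unadjusted limma p under 0.05.

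Of 14 channels known from the kidney tubule, 11 were kept, each on all 6 arrays, 9 higher and 2 lower, with a median of 0.12, and none had an unadjusted p under 0.05. Kcnj1, the luminal secretory channel of the thick ascending limb and collecting duct, read 5.30, 5.31 and 5.63 in WT and 5.47, 5.63 and 5.54 in C3aR-/-, a difference of 0.13 ± 0.13. Kcnj10 and Kcnj16, which pair in the basolateral membrane of the distal convoluted tubule, differed by 0.08 ± 0.11 and 0.23 ± 0.18. Kcnj10 read 3.75, 3.63 and 3.75 in WT and 3.71, 3.94 and 3.72 in C3aR-/-. The groups overlapped in each of these genes. Distal convoluted tubule markers were higher in 5 of 6, none at an unadjusted p under 0.05, with a median of 0.29. Their sums were 87.3 to 115.7 in WT against 118.2 to 149.2 in C3aR-/-. These sums are weighted to the brightest marker, Calb1, so they do not describe the list as a whole. The part of these markers in the distal channel values was not tested.

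Kcnj15, an inward rectifier of the tubule, read 3.09, 3.75 and 3.36 in WT and 3.62, 3.97 and 3.51 in C3aR-/-. Kcnj16 read 5.51, 5.99 and 5.77 against 5.85, 6.28 and 5.85. In both, WT replicate 1 was the lowest and C3aR-/- replicate 2 the highest of the 6 arrays. Without WT replicate 1, the differences of 0.30 and 0.23 became 0.15 and 0.11, and without C3aR-/- replicate 2 as well they became 0.01 and -0.03. The proximal tubule marker list moved the same way on these arrays: all 10 markers were higher in C3aR-/-, none at an unadjusted p under 0.05, with a median of 0.53. Its sum was 237.8 in WT replicate 1, 558.8 and 485.3 in WT replicates 2 and 3, and 491.0, 708.2 and 430.9 in C3aR-/-. The part of these markers in the channel differences was not tested.

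Kcnj13, a basolateral inward rectifier, differed by 0.24 ± 0.16. Kcnk1 and Kcnk5, tandem-pore channels of the tubule, differed by -0.19 ± 0.12 and 0.08 ± 0.19. Kcne1, the subunit that joins Kcnq1 in the proximal tubule brush border, differed by 0.18 ± 0.11, and Kcne3, its epithelial relative, by 0.12 ± 0.14. Of the tubule list, Kcnma1 and Kcnk1 were the lower ones. Kcnmb2 and Kcnmb4, which encode auxiliary subunits of the Kcnma1 channel, and Kcna10 were not kept.

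**Figure D3:**
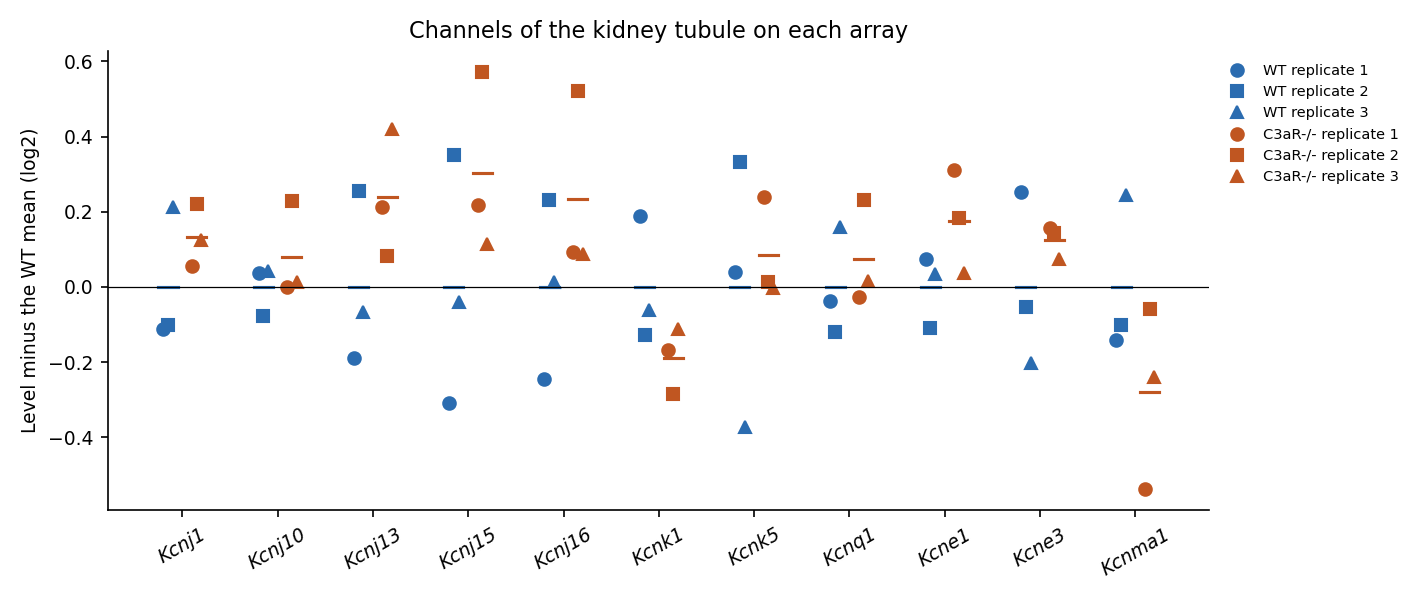
Level of each of the 11 kept kidney tubule channels on the 6 arrays, as the difference from that gene's WT mean (log2), with a symbol per replicate, WT in blue and C3aR-/- in orange, and short bars for the group means. The groups overlap in all 11 genes, and WT replicate 1 is lowest in Kcnj1, Kcnj13, Kcnj15 and Kcnj16.

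Kcnq1 is the voltage-gated channel that works with Kcne1 in the tubule. Its pair of brightest probes overlap in 51 of 60 bases, so they are near copies of each other and count as 1 measurement. Their first 30 bases, with the 21 shared bases in capitals, were as follows.
Kcnq1 probe used, first 30 bases: aatttcgtaGTATGATCTTGATTGAGAGAC
Kcnq1 overlapping probe, first 30 bases: GTATGATCTTGATTGAGAGACttttccaaa
The probe used read 2.62, 2.53 and 2.81 in WT and 2.63, 2.88 and 2.67 in C3aR-/-, a difference of 0.07 ± 0.12, and the overlapping probe gave 0.01 ± 0.13. The other kept probes, both dim, gave -0.12 and -0.06.

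Of the 11 genes with several kept probes, 5 had probes whose differences ran in opposite directions: Kcnh2, Kcnma1, Kcnn1, Kcnn2 and Kcnq1. Kcnh2, the hERG channel, is the plainest case. The probe used spans 273 bases of the genome at chr5:23827188-23827460 (mm9, minus strand) and gave -0.73 ± 0.53, and the other probe, at chr5:23825407-23825466, gave 0.20 ± 0.22. Their first 30 bases follow, with no motif marked.
Kcnh2 probe used: tgaacaggctggaaacccggctaagtgcag
Kcnh2 other probe: tgatgactatgaataataaataattatcct
The probe used had WT replicates 1 and 2 at -2.77 and -2.79 and WT replicate 3 at -4.23, while C3aR-/- replicates 1 and 2 lay at -4.45 and -4.44 and replicate 3 at -3.08. Each group therefore had an array near the level of the other group, and with single arrays left out the difference ran from -1.21 to -0.48.

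Kcnma1, the large-conductance calcium-activated channel, had 5 kept probes, with differences of 0.07, -1.01, -0.20, -0.01 and -0.28, the last being the probe used (-0.28 ± 0.17). The one at -1.01 ± 0.49 (unadjusted limma p above 0.05) read -4.71, -2.83 and -4.59 in WT and -4.86, -5.26 and -5.06 in C3aR-/-. WT replicate 2 was the highest array by far, and the groups of this probe did not overlap. The first 30 bases of these probes follow.
Kcnma1 probe at -1.01: agattccttgatgcacatttctcttctttc
Kcnma1 probe used: gaaggtactttaggatttttcatcgcaagt

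**Figure D4:**
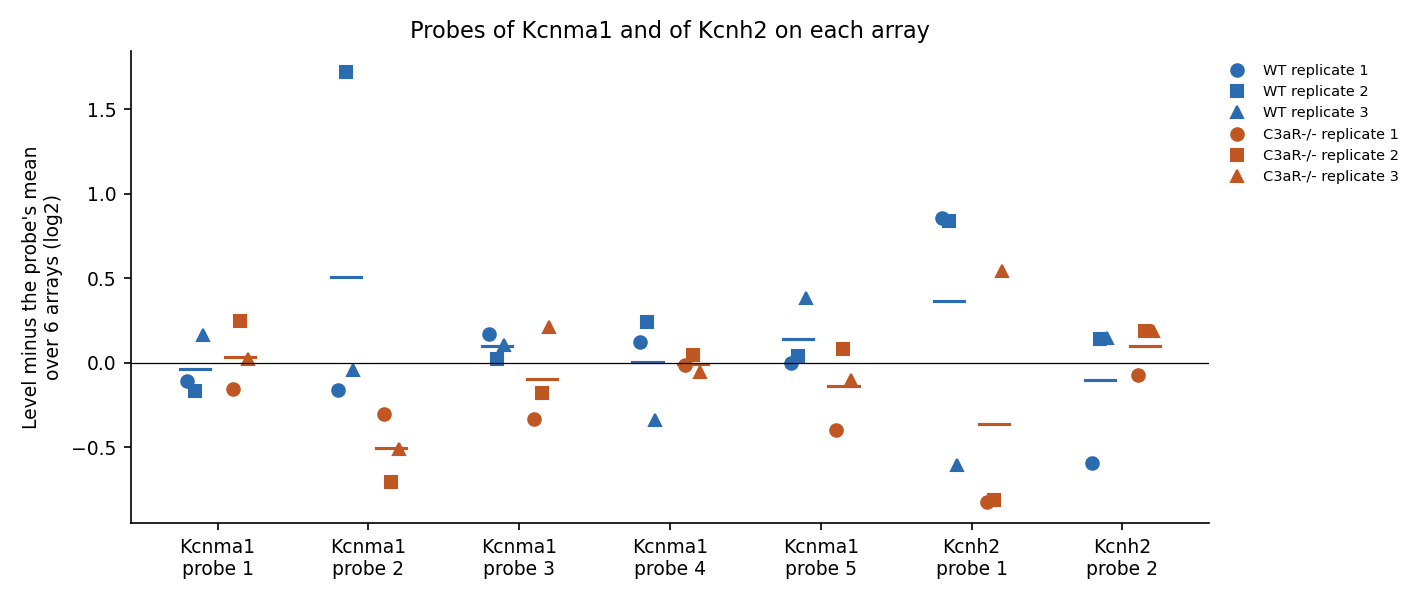
Level of each kept probe of Kcnma1 (probes 1 to 5) and Kcnh2 (probes 1 and 2), numbered by probe identifier, on the 6 arrays, as the difference from that probe's mean over all arrays (log2), with short bars for the group means. WT replicate 2 stands far above the other arrays in probe 2 of Kcnma1, and the group means of the Kcnh2 probes lie in opposite order.

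Channels of vessel walls and endothelium were all kept, 7 of 7. Of these, 4 were lower and 3 higher, with a median of -0.07, and none had an unadjusted p under 0.05. Kcnj8, the pore of the ATP-sensitive channel of vascular smooth muscle, read -0.18, -0.11 and 0.59 in WT and 0.38, 0.13 and 0.12 in C3aR-/-, a difference of 0.11 ± 0.22. With single arrays left out it ran from -0.03, without WT replicate 1, to 0.36, without WT replicate 3. Its partner Abcc9, the sulfonylurea receptor, differed by 0.40 ± 0.25. Kcnk3, a tandem-pore channel of arterial muscle, differed by -0.07 ± 0.14, and Kcna5, a voltage-gated channel, by 0.14 ± 0.19. Kcnn3, a small-conductance calcium-activated channel of endothelium, differed by -0.11 ± 0.27. Kcnmb1, the smooth muscle subunit of the Kcnma1 channel, had arrays from -6.37 to -4.04 and a difference of -0.25 ± 0.65, and C3aR-/- replicate 2 was its lowest array. Without that array the Kcnmb1 difference was 0.53, and with normexp it was 0.09, so its place among the 4 lower genes rests on that array and setting. Smooth muscle and pericyte markers, a list that includes Abcc9, were higher in 7 of 9, with a median of 0.30. None of them had an unadjusted p under 0.05, and their sums were 28.8 to 38.5 in WT against 29.9 to 41.4 in C3aR-/-. Endothelial markers were higher in 6 of 7, with a median of 0.12. The part of these markers in the vessel channel values was not tested.

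By class, the inward rectifiers had 11 of 15 genes kept, 9 higher and 2 lower, with a median of 0.13. Among them Kcnj12 had one of the highest differences of any member, 0.52 ± 0.29 (limma adjusted p = 0.931): its levels were -2.53, -1.77 and -1.70 in WT and -1.34, -1.17 and -1.94 in C3aR-/-. Its other probe gave 0.48 ± 0.23, and its groups did not overlap. WT replicate 1 was the lowest array for Kcnj12, and without it the difference was 0.25. Without C3aR-/- replicate 3 the Kcnj12 difference was 0.75, with an unadjusted limma p under 0.05. With the slide row as a block, the Kcnj12 difference of 0.52 had a standard error of 0.0997 and an unadjusted p under 0.05. The tandem-pore channels had 8 of 14 kept, 5 lower and 3 higher, with a median of -0.13. Kcnk10 had the lowest difference of all members, -0.96 ± 0.89 (limma adjusted p = 0.931), from levels of -3.27, -5.83 and -4.29 in WT and -5.21, -6.97 and -4.10 in C3aR-/-. It is dim, with 2 arrays of each group well above background, and its arrays range over 3.70. The difference was -0.19 without C3aR-/- replicate 2, -0.37 without WT replicate 1, 0.40 without both and -0.19 with normexp background correction, so neither its size nor its direction held.

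The calcium-activated class, Kcnn and Kcnma1, had all 5 genes kept, 4 lower and 1 higher. The voltage-gated class had 22 of 40 kept, 16 higher and 6 lower, with a median of 0.12. Among them the silent subunit Kcns1 read -4.23, -3.26 and -3.24 in WT and -3.02, -3.03 and -3.22 in C3aR-/-, a difference of 0.49 ± 0.28 (limma adjusted p = 0.931). Its groups did not overlap, WT replicate 1 lay far below every other array, and without that array the difference was 0.16. With the slide row as a block its unadjusted p was under 0.05. Kcnh1, a voltage-gated channel related to Kcnh2, differed by -0.44 ± 0.21. The sodium- or pH-gated channels Kcnt1, Kcnt2 and Kcnu1 differed by 0.35 ± 0.60, -0.03 ± 0.51 and 0.19 ± 0.19, and Kcnt1 read -6.46 in WT replicate 1 against -4.95 to -4.25 on the other arrays. Without that array the Kcnt1 difference was -0.39, so its direction turned. The auxiliary subunits had 9 of 15 kept, 5 higher and 4 lower, with a median of 0.08.

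The spread between arrays was wider for the channel genes than for all genes. The median pooled standard deviation was 0.258 over the 58 members and 0.190 over all genes, and 8 members had one above 0.5 (13.8%, beside 7.71% of all genes): Kcnk10, Kcnmb1, Kcnip1, Kcnt1, Kcng2, Kcnh2, Kcnt2 and Kcnj4. All 8 were dim, with mean WT levels from -4.99 to -3.19. Among bright members it was 0.144 for Kcnj1 and 0.103 for Kcnj10, but 0.290 for Kcnj15 and 0.243 for Kcnj16. The part of the signal level in this spread was not tested. WT replicate 1 was the lowest of the 6 arrays for 21 members, 36.2% beside 29.6% of all genes. Without that array the median member difference was 0.0061, beside 0.0225 over all genes. Of the 58 genes, 29 were then lower, beside 43.6% of all genes.

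**Figure D5:**
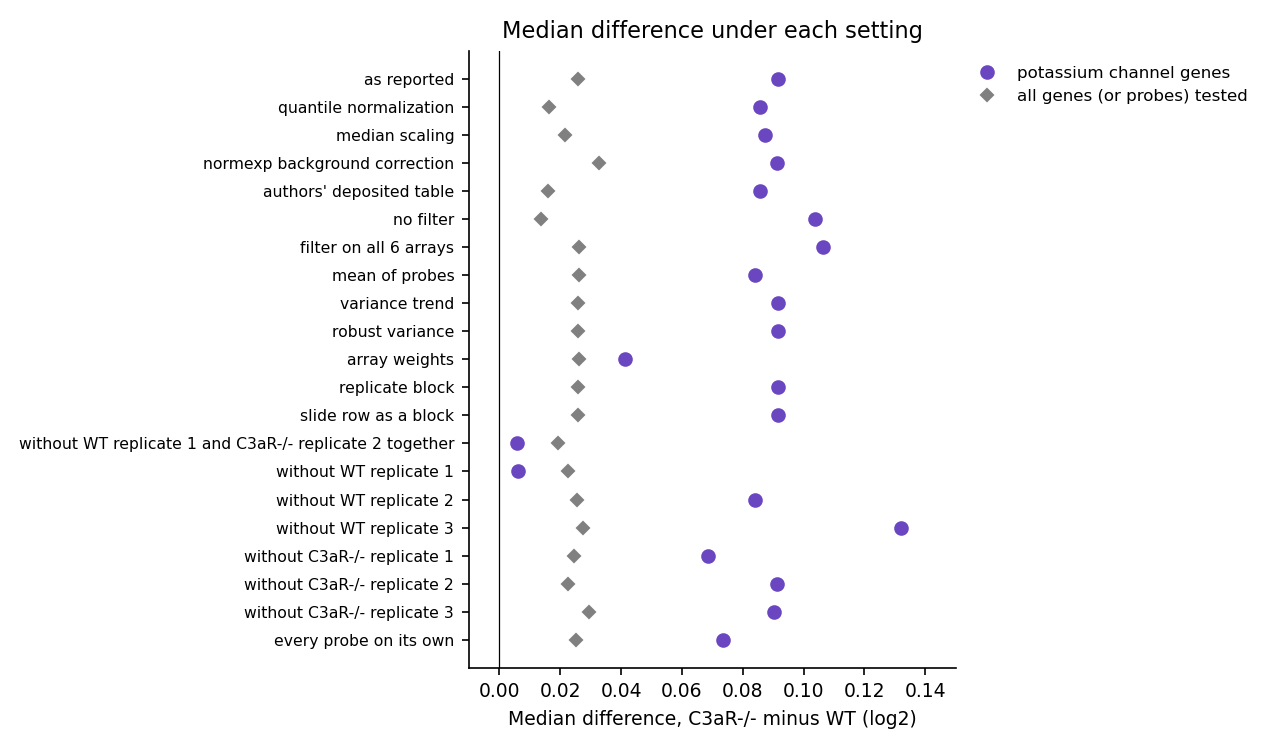
Median difference of the potassium channel genes, C3aR-/- minus WT (log2), under each alternative processing and with arrays left out. The median is 0.0915 as reported, 0.0061 without WT replicate 1 and 0.0057 without WT replicate 1 and C3aR-/- replicate 2.

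Partners of the channels were described from lists named with earlier results of these data known. Of 22 potassium transport partners, 20 were measured, 17 higher and 3 lower, with a median of 0.13. Atp1b2, a beta subunit of the sodium pump, differed by 0.42 ± 0.20. Of 22 genes that control renal potassium channels, 21 were measured, 14 higher and 7 lower. Scnn1a, a subunit of the epithelial sodium channel, differed by 0.27 ± 0.09 (unadjusted limma p under 0.05), and Sgk1, the kinase that raises channel traffic, by 0.43 ± 0.21. Of 18 associated subunits from outside the Kcn names, 15 were measured, 7 higher and 8 lower, and the scaffold Dlg4 had the smallest p, 0.64 ± 0.20 (unadjusted limma p under 0.05).

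At the threshold of 3 arrays, Kcnc1 and Kcne4 were just inside it, at 0.42 ± 0.30 and -0.13 ± 0.28. The unadjusted p of Kcnc1 was under 0.05 with the slide row as a block. Kcna1, Kcnmb2 and Kcnv2 were just outside it, with 2 arrays each well above background. Kcnc1 read from -5.71 to -4.58 over the 6 arrays and Kcne4 from -5.40 to -4.55. Kcna1 read from -6.67 to -4.22, Kcnmb2 from -6.13 to -4.69 and Kcnv2 from -6.15 to -4.15.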

How the data were processed

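Renal cortex RNA (0.2 µg, Cy3, per the labels' protocols) was hybridised to 1-colour Agilent arrays. The scanner software was Agilent Feature Extraction 10.7.1.1 with 62976 spots on a grid of build mm9, per the file headers and the submitters' processing notes. The deposited intensity values used were the background-subtracted processed signal, the mean spot signal and the local background. The authors' deposited table holds log2 values of the same arrays, and no source used here states its normalization. Its columns, each sorted, differed by at most 0.000865, so the arrays share a distribution, as quantile normalization gives. It nearly repeats the quantile alternative run here, with a Kcnn4 difference of -0.85 in both.

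Outlier-flagged and control spots were removed, spots of a probe averaged, and log2 processed signals set against the array's 75th percentile. The filter (well above background, 3 or more arrays) kept 34778 of 56605 probes, and the brightest kept probe stood for its gene. Groups were compared with limma 3.58.1 (lmFit, eBayes) in R 4.3.3, tested on simulated data, with Benjamini-Hochberg adjustment over all genes. Members and lists were chosen with earlier results of these data known. Named genes were those with an unadjusted p under 0.05, the 2 largest differences each way, the tubule, leukocyte and vessel lists, and the 2 smallest p in each partner and marker list; other channel genes named were chosen after their values were seen. Alternatives changed scaling, background correction with normexp (offset 50), source table, filter, probe choice, variance model, array weights, replicate and slide row blocks, and the arrays used. Names of 92 of 92 family genes matched the RefSeq table. Figures were drawn with matplotlib 3.10.9. Values of a few single genes are not reported here, though counts and medians include them.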

Additional observations from a re-analysis of the deposited data

How the results depend on the processing

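No gene, channel or otherwise, passed the adjusted threshold under any alternative (limma), while from 767 to 2115 genes had an unadjusted p under 0.05. Against the 2 channel genes reported at an unadjusted p under 0.05, a variance trend gave 1 (beside 4.31% of all genes in that setting), array weights 8 (9.3%), the slide row as a block 5 (7.66%), and leaving out both WT replicate 1 and C3aR-/- replicate 2 gave 4 (8.9%). Single arrays left out gave 1 to 4: 1 without C3aR-/- replicate 1 (3.37%), and 4 without WT replicate 2 (6.7%) or C3aR-/- replicate 2 (4.65%). The median difference of 0.0915 was 0.0057 without both end arrays and 0.0061 to 0.132 with single arrays left out, the lowest without WT replicate 1. Over all genes it was 0.0193 without both end arrays and 0.0225 to 0.0295 with single arrays left out. The count of lower genes, 22 of 58 (beside 43.4% of all genes), was 14 with normexp (40%). It was 20 to 29 with single arrays left out (43.6% to 45.2%). The cause was not tested. Kcnn4 had an unadjusted p under 0.05 in every setting run except the one without both end arrays.

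With the replicate number as a block, 3 channel genes had an unadjusted p under 0.05 (Kcnh1, Kcnk13 and Kcnn4), beside 7.02% of all genes. Same-numbered arrays deviated together with correlations of 0.125, 0.406 and -0.0929, and 3 of 6 arrays correlated best with their own number. The labels give only a replicate number, and these values do not settle whether same-numbered arrays were paired. With 3 arrays per group, their number limits the precision.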

Other observations

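Among the channel genes that were not kept, Kcnmb4 stood out on 1 array: C3aR-/- replicate 2 read -2.26, well above background, while the other arrays read from -7.54 to -5.78. Kcnb2 was well above background only on C3aR-/- replicate 3, at -3.63, Kcnk2 only on C3aR-/- replicate 2, at -4.46, and Kcnh7 only on C3aR-/- replicate 1, at -4.80. These genes were picked after their values were seen.

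Channel genes that neighbour each other in the genome, by the order in the RefSeq table of GRCm38.p6, were described as pairs. Kcnj16 and Kcnj2 differed by 0.23 and 0.07, Kcnj5 and Kcnj1 by 0.33 and 0.13, and Kcnk5 and Kcnk16 by 0.08 and 0.25, and Kcnip1 and Kcnmb1 by -0.06 and -0.25. Both members of each of these pairs had the same sign, in a family with 36 of 58 genes higher, and none had an unadjusted p under 0.05. With single arrays left out, the sign turned for Kcnj2, Kcnk5, Kcnk16, Kcnip1 and Kcnmb1. It held for Kcnj16, Kcnj5 and Kcnj1. Kcnj11, the pore partner of Abcc8, was well above background on no array, while Abcc8 differed by 0.29 ± 0.22.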
